A study of Mus musculus with 8 samples.

Results

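A set of 10 immediate early genes was followed across 8 Affymetrix arrays of malignant peripheral nerve sheath tumours, taken as primary tumours from mice: Fos, Fosb, Junb, Egr1, Egr2, Egr3, Nr4a1, Ier2, Ier3 and Myc. They were chosen by name as genes of the immediate early response. No measured value enters that rule, but the set was drawn up with earlier results of these data known. They are 10 of the 19938 genes measured. Each is represented by 1 probe set annotated to that gene alone. The tumours come from the NPcis model, in which mice carry inactivated Nf1 and Trp53 alleles linked on the same chromosome, and all 4 groups share this genotype. The groups hold 2 arrays each. Tumours of the combination group received rapamycin at 5 mg/kg by intraperitoneal injection together with PD-0325901, given by oral gavage in 2 doses a day of 1.5 mg/kg each. The PD-0325901 and rapamycin groups received either drug alone at the same dose, and the last group received vehicle, each for 14 hours. The labels give no age, sex or animal number, and do not say whether the arrays of a group come from separate animals, so p-values measure only the spread between these arrays.

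Immediate early genes are transcribed within minutes of a growth factor signal, without new protein synthesis, and their transcripts are short-lived. Extracellular signal-regulated kinase (ERK) and the kinases it activates act on transcription factors already bound at their promoters, namely serum response factor (SRF) with its ternary complex partners such as Elk1, and the cAMP response element binding protein CREB. Nf1 encodes neurofibromin, which switches Ras off, so its loss raises signalling through RAF, MEK and ERK. PD-0325901 inhibits MEK, the kinase that activates ERK, and rapamycin inhibits the growth-regulating kinase complex mTORC1.

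Values are log2 expression values as deposited, and a difference of 1.0 is a change by a factor of 2.0. Each gene was compared with itself between groups, since levels of different probe sets are not on a common scale. The expression comparison that uses all arrays, called the PD-0325901 main effect below, is the mean of 2 differences: PD-0325901 minus vehicle and combination minus rapamycin. Over all probe sets, 2 arrays of 1 group correlated at 0.961 to 0.986 (4 pairs), and 2 arrays of different groups at 0.963 to 0.985 (24 pairs). Some arrays stood apart in markers of other tissues, given as the mean of markers centred over the 8 arrays. Rapamycin array 1 had 2.32 for 7 adipocyte markers (other arrays -0.55 to 0.12), rapamycin array 2 had 1.82 for 10 skeletal muscle markers (others -0.98 to 0.76), and PD-0325901 array 2 had 1.40 for 4 erythroid markers (others -0.44 to -0.02). For 10 fibroblast markers, rapamycin array 2 (-0.86) and vehicle array 1 (-0.83) lay below the other arrays (-0.22 to 0.63), and rapamycin array 1 was the highest. Of the Schwann cell markers, Sox10 lay between 7.85 and 8.17 and S100b between 7.12 and 7.32, against array medians of 7.79 to 7.90. The table holds no detection call, so neither marker could be called present or absent. In bulk tumour RNA, fewer cells of a type and less RNA per cell cannot be told apart.

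Promoter sequences are shown for the 3 members whose levels separated the arrays by PD-0325901 (Fos, Fosb and Nr4a1). Also shown are Egr2, whose window holds a match to the CArG box, and Ier3, the member with the smallest difference. RefSeq windows on GRCm38.p6, 250 bases before to 50 after a transcription start, were found for 6 of the 10 members: Fos, Fosb, Junb, Egr2 (5 windows), Nr4a1 and Ier3. The windows below lie at chr12:85473640-85473939 (Fos, plus strand), chr7:19309996-19310295 (Fosb, minus strand), chr15:101266596-101266895 (Nr4a1, plus strand), chr10:67537619-67537918 (Egr2, plus strand) and chr17:35821463-35821762 (Ier3, plus strand). Each is written 5′ to 3′ along the gene, and capitals mark the motifs searched on both strands: TGACG, the core of a CREB site, CCGGAA, an ETS factor core, TATAAA, and the CArG box bound by SRF. No match of these motifs overlaps a match of another in the windows shown.
Fos: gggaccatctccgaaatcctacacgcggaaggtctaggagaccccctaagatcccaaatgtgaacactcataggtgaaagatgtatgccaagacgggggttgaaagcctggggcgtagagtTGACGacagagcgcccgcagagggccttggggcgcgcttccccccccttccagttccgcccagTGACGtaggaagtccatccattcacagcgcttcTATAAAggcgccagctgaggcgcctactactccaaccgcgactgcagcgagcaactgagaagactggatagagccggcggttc
Fosb: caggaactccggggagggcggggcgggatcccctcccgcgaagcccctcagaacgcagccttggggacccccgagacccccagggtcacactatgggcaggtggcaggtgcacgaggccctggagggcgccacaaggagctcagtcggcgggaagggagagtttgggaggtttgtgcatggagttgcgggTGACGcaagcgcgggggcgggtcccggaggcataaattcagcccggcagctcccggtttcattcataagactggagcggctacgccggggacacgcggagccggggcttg
Nr4a1: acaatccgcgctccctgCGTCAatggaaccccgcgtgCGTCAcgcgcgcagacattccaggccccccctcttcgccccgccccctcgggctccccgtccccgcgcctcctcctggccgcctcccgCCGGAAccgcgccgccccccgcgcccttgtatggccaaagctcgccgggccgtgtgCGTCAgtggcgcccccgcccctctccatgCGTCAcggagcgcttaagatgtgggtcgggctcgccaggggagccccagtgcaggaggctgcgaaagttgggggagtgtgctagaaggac
Egr2: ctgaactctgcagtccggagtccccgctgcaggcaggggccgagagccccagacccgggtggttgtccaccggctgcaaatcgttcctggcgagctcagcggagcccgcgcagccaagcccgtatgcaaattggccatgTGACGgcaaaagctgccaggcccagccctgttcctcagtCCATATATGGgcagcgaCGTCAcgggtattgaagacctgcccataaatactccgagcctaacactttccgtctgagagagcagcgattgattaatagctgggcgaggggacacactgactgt
Ier3: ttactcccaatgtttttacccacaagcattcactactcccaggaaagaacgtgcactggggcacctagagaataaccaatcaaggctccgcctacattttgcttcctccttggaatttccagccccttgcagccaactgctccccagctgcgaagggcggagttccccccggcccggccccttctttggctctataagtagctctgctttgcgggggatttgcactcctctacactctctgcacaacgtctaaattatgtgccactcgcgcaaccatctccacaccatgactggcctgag

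TGACG was found in 5 of the 6 members with a window (Fos, Fosb, Junb, Egr2 and Nr4a1), and in 20.8% of all 32851 windows of this length. Nr4a1 holds it at 4 places, the nearest ending 36 bases before the start site, and Fos at 2, beside a TATAAA 33 to 28 bases before the start. In Fosb the match lies 60 to 56 bases before the start. The CArG box was found in Egr2 alone of the 6, and in 1.63% of all windows. It lay in 4 of the 5 Egr2 windows, some of which overlap and share the same match. CCGGAA was found in 2 of the 6 members (Egr2 and Nr4a1) and in 14.9% of all windows, and TATAAA in 2 of the 6 (Fos and Junb) and in 13.6%. The Ier3 window holds none of these letters. A match is a run of letters in this window, and binding was not measured. A member was counted if any of its windows matched (5 windows for Egr2), while the percentages count single windows. The shares of members and of windows are thus unlike measures. Sites outside the windows, and the promoters of Egr1, Egr3, Ier2 and Myc, were not searched, so a window without a match does not show that a gene lacks the site.

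The AP-1 genes were examined first. AP-1 is a dimer of Fos and Jun family proteins that drives transcription of growth and invasion genes, and Fos, Fosb and Junb each encode a subunit of it. Fos had 7.74 and 7.62 in the combination, 7.90 and 7.44 with PD-0325901, 8.29 and 8.10 with rapamycin, and 9.62 and 8.25 in vehicle tumours. All 4 arrays with PD-0325901 lay below all 4 without it, by a gap of 0.20, and vehicle array 1 stood 1.37 above vehicle array 2. Fosb had 7.73 and 7.84 in the combination, 7.80 and 7.76 with PD-0325901, 8.42 and 8.09 with rapamycin, and 8.56 and 8.60 in vehicle tumours. The 4 arrays with PD-0325901 spanned 7.73 to 7.84 and again lay below the other 4, here by a gap of 0.25, and both rapamycin arrays lay between them and vehicle. With PD-0325901, Fosb and Fos (7.44 to 7.90) thus lay at or near the array medians of 7.79 to 7.90. By mean level they stand at percentiles 47.3 and 47.7 of all genes. As there is no detection call, how far these low values lie above background is unknown. Junb had 8.41 and 8.27 in the combination, 8.50 and 8.05 with PD-0325901, 8.19 and 9.76 with rapamycin, and 9.05 and 8.71 in vehicle tumours. Here the rapamycin arrays were 1.58 apart, so that rapamycin array 1 lay within the range of the arrays with PD-0325901 and array 2 had the highest value of all.

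The Egr genes encode zinc finger transcription factors. Egr1 is a general early responder to growth factors, Egr2 is known for its part in Schwann cell myelination, and Egr3 acts in nerve and lymphoid cells. Egr1 had 9.70 and 9.62 in the combination, 9.43 and 8.53 with PD-0325901, 9.43 and 10.74 with rapamycin, and 10.29 and 10.38 in vehicle tumours. All 4 arrays with PD-0325901 lay below both vehicle arrays, and rapamycin array 1 lay among them. Egr2 had 8.51 and 8.10 in the combination, 8.81 and 8.44 with PD-0325901, 8.45 and 9.20 with rapamycin, and 9.002 and 8.785 in vehicle tumours. Its PD-0325901 and vehicle arrays overlapped, while the combination arrays lay below vehicle. Egr3 had 8.92 and 8.61 in the combination, 8.85 and 8.66 with PD-0325901, 8.76 and 9.71 with rapamycin, and 9.43 and 9.13 in vehicle tumours. As for Egr1, the arrays with PD-0325901 lay below vehicle and rapamycin array 1 lay among them.

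Nr4a1 encodes the orphan nuclear receptor Nur77, which needs no known ligand and is controlled mainly through its own transcription. It had 8.24 and 8.40 in the combination, 8.48 and 8.11 with PD-0325901, 8.86 and 8.92 with rapamycin, and 9.60 and 11.01 in vehicle tumours. The arrays lay in 3 steps without overlap: the 4 with PD-0325901, then both rapamycin arrays, then both vehicle arrays, which were 1.41 apart. Myc encodes the growth-promoting transcription factor of that name. It had 11.05 and 10.77 in the combination, 11.45 and 10.85 with PD-0325901, 11.03 and 11.60 with rapamycin, and 11.72 and 11.50 in vehicle tumours. The arrays with PD-0325901 lay below both vehicle arrays, and rapamycin array 1 overlapped them.

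Ier2 encodes a nuclear regulator of early transcription, and Ier3 a small survival protein that is also an ERK substrate. Ier2 had 7.85 and 7.47 in the combination, 8.08 and 7.66 with PD-0325901, 7.60 and 7.95 with rapamycin, and 8.19 and 8.21 in vehicle tumours. All 6 arrays with a drug lay below both vehicle arrays, and the 3 drug groups overlapped each other. The share of all genes with this pattern was not counted. By mean level Ier2 stands at percentile 42.9 of all genes, and its values (7.47 to 8.21) lie near the array medians of 7.79 to 7.90. How far they lie above background is unknown. Ier3 had 8.29 and 8.11 in the combination, 9.01 and 8.64 with PD-0325901, 8.40 and 8.83 with rapamycin, and 8.98 and 8.13 in vehicle tumours. It was the member with the highest group mean in PD-0325901 tumours, and the vehicle arrays, 0.86 apart, spanned all other arrays but PD-0325901 array 1 and combination array 2. Vehicle had the highest group mean for 8 of the 10 members, all but Junb (rapamycin) and Ier3 (PD-0325901). The share of all genes with the highest mean in vehicle was not counted. When the 4 groups of a gene were put in order of their means, 8 of the 30 neighbouring pairs (26.7%) had arrays that did not overlap, against 19% of such pairs over all genes. The other neighbours in these orders overlapped.

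**Figure D1:**
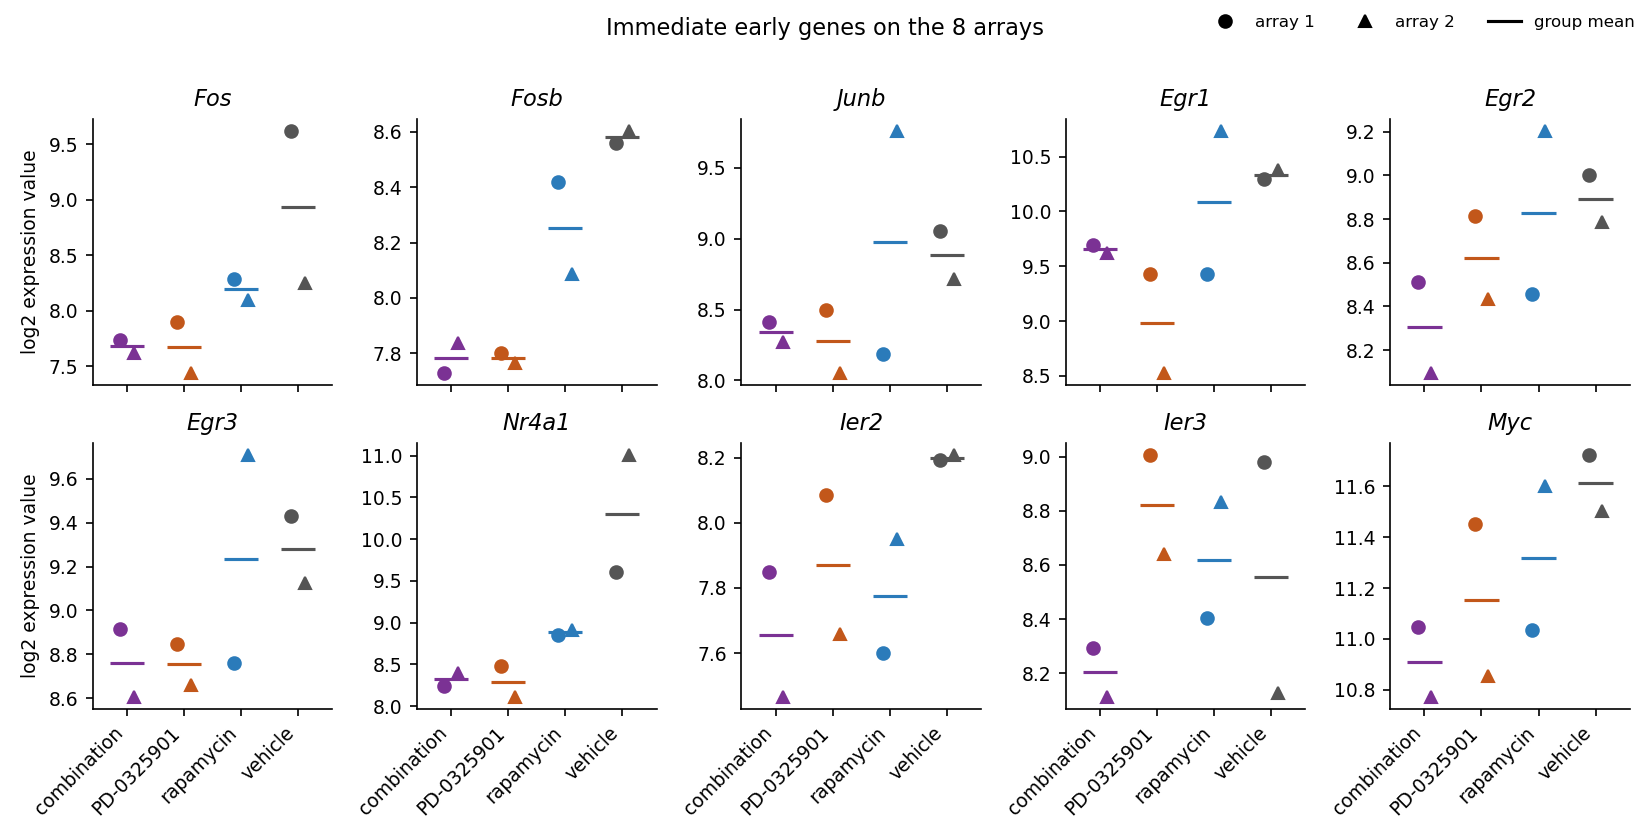
Log2 expression value (vertical axis, scaled per gene) of each of the 10 members by group, with circles for array 1, triangles for array 2 and a bar for the group mean. Fos, Fosb and Nr4a1 have all 4 arrays with PD-0325901 below the other 4, and the rapamycin arrays are 1.58 apart for Junb and 1.30 for Egr1.

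The PD-0325901 main effect asked how the genes differ with this MEK inhibitor, averaged over tumours with and without rapamycin. The activity of MEK and mTORC1 was not measured on these arrays. All 10 members had lower means with PD-0325901, as did 10769 of all 19938 genes. The members correlated with each other over the arrays, so their signs are not independent. Nr4a1 averaged 8.31 with and 9.60 without the drug, a difference of -1.29 (SE 0.30, 95% interval -2.04 to -0.54, limma adjusted p = 0.2831, n = 4 and 4), or 2.44-fold lower. Fosb had the smallest p of the members, averaging 7.78 with and 8.42 without the drug, a difference of -0.63 (SE 0.09, 95% interval -0.86 to -0.40, adjusted p = 0.1478). The 95% intervals of Fos (-1.63 to -0.14, around -0.89) and Egr1 (-1.70 to -0.08, around -0.89) also lay below 0, with adjusted p-values of 0.4411 and 0.4776. No member passed an adjusted p of 0.05, nor did any of the 19938 genes (0%).

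The remaining differences were -0.62 for Junb (SE 0.35), -0.50 for Egr3 (SE 0.22), -0.43 for Myc (SE 0.19), -0.40 for Egr2 (SE 0.21), -0.22 for Ier2 (SE 0.15) and -0.07 for Ier3 (SE 0.22). Their 95% intervals all contain 0, and that of Ier3 runs from -0.61 to 0.47. At an unadjusted p under 0.05, 4 of the 10 members were lower (Fos, Fosb, Egr1 and Nr4a1) and 0 higher, where 4.14% of all genes were lower and 5.47% higher. The 3 members whose arrays with and without PD-0325901 did not overlap compare with 2.39% of all genes that were lower in this way, and 0 members were higher without overlap (3.34% of all genes). The median difference of the members was -0.56, and that of all genes -0.01. It was -0.28 without rapamycin array 2 and -0.66 without rapamycin array 1, with Junb at -0.23 and -1.01, Egr1 at -0.56 and -1.21, Egr3 at -0.26 and -0.74 and Egr2 at -0.21 and -0.59. Without PD-0325901 array 2, Myc was -0.28, Ier2 -0.12 and Ier3 0.02, and without vehicle array 1 Ier3 was 0.14. Fos, which was -0.89 with all arrays, was -0.55 without vehicle array 1, and Fosb stayed between -0.72 and -0.55 whichever array was left out.

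**Figure D2:**
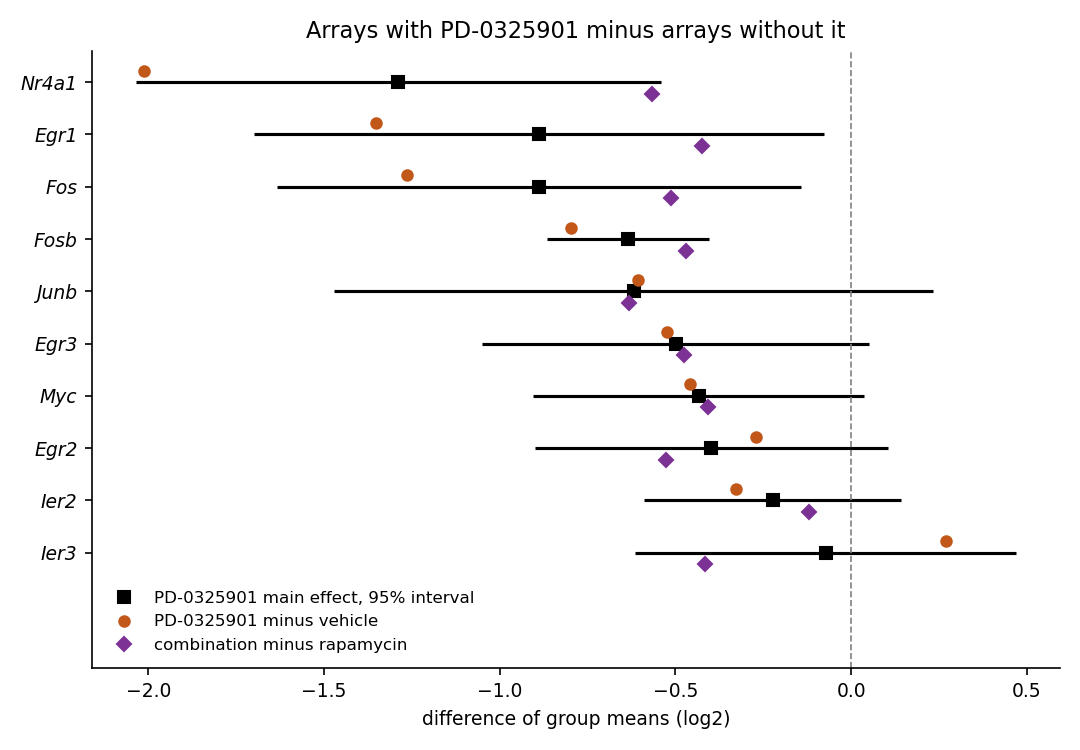
Log2 differences (horizontal axis) of the 10 members: squares with 95% intervals give the PD-0325901 main effect, circles PD-0325901 minus vehicle and diamonds combination minus rapamycin. The intervals of Nr4a1, Egr1, Fos and Fosb lie below 0, and Ier3 is the member whose 2 points lie on opposite sides of 0.

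PD-0325901 alone was set against vehicle to ask how the genes differ with this drug in the absence of rapamycin. Nr4a1 averaged 8.30 with PD-0325901 and 10.31 in vehicle tumours, a difference of -2.01 (SE 0.43, limma adjusted p = 0.5423, n = 2 and 2) that equals a 4.03-fold lower level. It was -1.31 without vehicle array 2. Fosb differed by -0.80 (SE 0.13, adjusted p = 0.4344), Fos by -1.26 (SE 0.43, adjusted p = 0.7566) and Egr1 by -1.35 (SE 0.47, adjusted p = 0.7600). The difference of Fos was -0.58 without vehicle array 1, and that of Egr1 -0.90 without PD-0325901 array 2. No gene passed the adjusted threshold (0%). At an unadjusted p under 0.05, these 4 members were lower and 0 higher, where 2.38% of all genes were lower and 3.47% higher. Arrays did not overlap for 8 of the 10 members, all lower, where 20.9% of all genes were lower and 17.6% higher without overlap. The exceptions were Egr2 (-0.27, SE 0.29) and Ier3 (0.27, SE 0.31).

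The combination was set against rapamycin to ask what PD-0325901 adds when rapamycin is given as well. All 10 members had lower means in the combination (as had 10312 of all 19938 genes), from -0.63 (Junb) to -0.12 (Ier2), with a median of -0.47. Fosb had the smallest p, with a mean of 7.78 in the combination and 8.25 in rapamycin tumours, a difference of -0.47 (SE 0.13, limma adjusted p = 0.6141, n = 2 and 2). It was the 1 member lower at an unadjusted p under 0.05, along with 2.71% of all genes (3.95% were higher), and no gene passed the adjusted threshold (0%). Egr2 differed by -0.53 (SE 0.29), Myc by -0.41 (SE 0.27) and Egr3 by -0.47 (SE 0.32). The arrays of Fos, Fosb, Nr4a1 and Ier3 did not overlap, all lower, which makes 4 of 10 members, against 15.1% of all genes lower and 16% higher. Without rapamycin array 2 the median was -0.14, Egr2 -0.15, Myc -0.12 and Fosb -0.64, and the means of Egr3 were equal to 2 decimals. Without rapamycin array 1 it was -0.66, with Egr2 at -0.90, Egr3 at -0.95, Myc at -0.69 and Fosb at -0.30. For Junb, Egr1 and Ier2 the combination means (8.34, 9.66 and 7.66) lay above rapamycin array 1 (8.19, 9.43 and 7.60). Their lower means in the combination thus rested on rapamycin array 2.

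Whether rapamycin altered the difference made by PD-0325901 was tested with the interaction, combination minus rapamycin less PD-0325901 minus vehicle. Nr4a1 had the smallest p of the members, with an interaction of 1.45 (SE 0.61, 95% interval -0.05 to 2.94, limma adjusted p = 0.9999): the difference with PD-0325901 was -0.57 with rapamycin and -2.01 without it. Fosb had 0.33 (SE 0.19), Ier3 -0.68 (SE 0.44) and Egr1 0.93 (SE 0.66). No member and no gene passed the adjusted threshold (0%), and 0 members had an unadjusted p under 0.05, where 1.14% of all genes lay below 0 and 1.03% above it. Without vehicle array 2 the interaction of Nr4a1 was 0.74 and that of Ier3 -0.26. That of Egr1 was 0.28 without rapamycin array 1, and that of Fosb 0.16 without rapamycin array 2.

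Both drugs together were set against vehicle. All 10 members had lower means in the combination (as had 10716 of all 19938 genes), with a median of -0.63. The arrays of 9 members did not overlap, all but Ier3, where 22.3% of all genes were lower and 17.9% higher without overlap. Nr4a1 averaged 8.32 in the combination and 10.31 in vehicle tumours, a difference of -1.99 (SE 0.43, limma adjusted p = 0.3588, n = 2 and 2). Fosb differed by -0.80 (SE 0.13, adjusted p = 0.3509), Fos by -1.25 (SE 0.43, adjusted p = 0.4757) and Myc by -0.70 (SE 0.27, adjusted p = 0.5267). With Ier2 (-0.54, SE 0.21), 5 members were lower at an unadjusted p under 0.05, along with 4% of all genes (5.08% were higher), and no gene passed the adjusted threshold (0%). The difference of Fos was -0.57 without vehicle array 1, and that of Nr4a1 -1.28 without vehicle array 2. This comparison and PD-0325901 against vehicle use the same vehicle arrays. Set side by side, the differences in the combination and with PD-0325901 alone were -1.99 and -2.01 for Nr4a1, -0.80 and -0.80 for Fosb, and -1.25 and -1.26 for Fos.

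The combination was also compared with PD-0325901 alone, to ask what rapamycin adds to this drug. Ier3 averaged 8.20 in the combination and 8.82 with PD-0325901, a difference of -0.62 (SE 0.31, limma adjusted p = 0.9998, n = 2 and 2), and its arrays did not overlap. Egr1 averaged 9.66 in the combination and 8.98 with PD-0325901, a difference of 0.68 (SE 0.47, adjusted p = 0.9998) that was 0.23 without PD-0325901 array 2. Ier3 was the 1 member lower without overlap (18.2% of all genes) and Egr1 the 1 member higher (16.3%). Ier2 (-0.22, SE 0.21) and Egr2 (-0.32, SE 0.29) overlapped. Their differences spanned -0.43 to 0.00 (Ier2, without PD-0325901 array 2 and array 1) and -0.53 to -0.11 (Egr2, without combination array 1 and array 2). For Fosb the difference was 0.00 with a 95% interval of -0.33 to 0.33, and for Nr4a1 it was 0.03 with an interval of -1.03 to 1.08. No gene passed the adjusted threshold (0%), and 0 members had an unadjusted p under 0.05 (1.27% of all genes lower, 1.74% higher).

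Rapamycin alone was set against vehicle. Nr4a1 averaged 8.89 with rapamycin and 10.31 in vehicle tumours, a difference of -1.42 (SE 0.43, limma adjusted p = 0.9638, n = 2 and 2), which was -0.72 without vehicle array 2. Fosb differed by -0.33 (SE 0.13, adjusted p = 0.9638), Ier2 by -0.42 (SE 0.21) and Fos by -0.74 (SE 0.43). Fosb was -0.16 without rapamycin array 2, Ier2 -0.25 without rapamycin array 1 and Fos -0.06 without vehicle array 1. Nr4a1 and Fosb were lower at an unadjusted p under 0.05, where 2.15% of all genes were lower and 2.77% higher. The arrays of Nr4a1, Fosb and Ier2 did not overlap, all lower, where 17.9% of all genes were lower and 12.5% higher without overlap. No gene passed the adjusted threshold (0%). The median of the members was -0.27. It was -0.59 without rapamycin array 2 and turned to 0.13 without rapamycin array 1. Over genes above the median level, which leaves out Fos, Fosb and Ier2, it was -0.06.

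The 2 rapamycin arrays differed most for the Junb and Egr genes. On rapamycin array 1 all 10 members lay below the vehicle mean, with Egr1 at -0.90, Junb at -0.70 and Egr3 at -0.52 relative to it. On rapamycin array 2 just 5 did, and Junb stood 0.88, Egr3 0.43, Egr1 0.40 and Egr2 0.31 above the vehicle mean. Nr4a1 (-1.45 and -1.39) and Fos (-0.65 and -0.83) lay below it by similar amounts on arrays 1 and 2. How many of all genes lay below the vehicle mean on these arrays was not counted. These are the arrays that stood apart in adipocyte markers (array 1) and skeletal muscle markers (array 2), and at 0.63 and -0.86 they were the highest and lowest of all arrays for fibroblast markers. The part of those tissues in the result was not tested. In the rapamycin main effect, the mean of its differences without and with PD-0325901, the members had a median of -0.23, from -0.70 (Nr4a1, SE 0.30, and -0.35 without vehicle array 2) to 0.21 (Egr1, SE 0.33). Ier2 had -0.32 (SE 0.15), Fosb -0.16 (SE 0.09, and -0.08 without rapamycin array 2) and Myc -0.27 (SE 0.19, and -0.12 without PD-0325901 array 1). In this main effect, 0 members had an unadjusted p under 0.05 (2.4% of all genes lower, 3.15% higher), 0 had arrays without overlap (1.94% lower, 1.41% higher), and no gene passed the adjusted threshold of limma (0%).

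**Figure D3:**
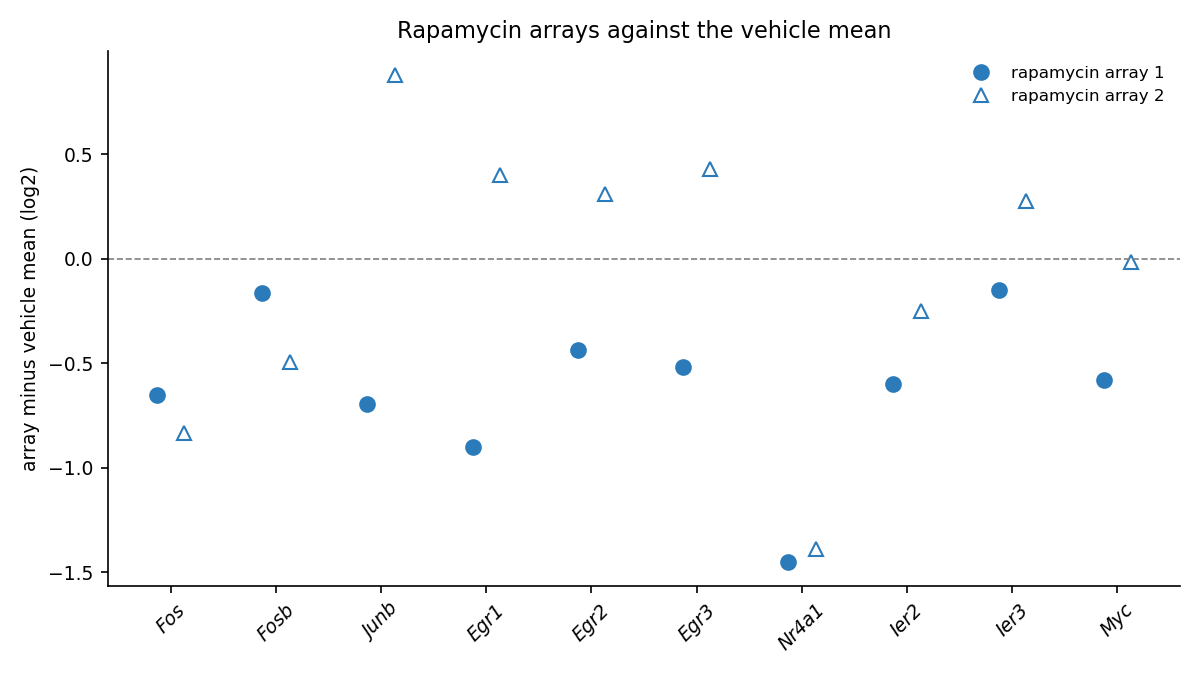
Log2 value of each member on the 2 rapamycin arrays minus the mean of the vehicle arrays (vertical axis, dashed line at the vehicle mean), with filled circles for array 1 and open triangles for array 2. Nr4a1, Fos and Fosb lie below the line on both arrays, while Junb and the 3 Egr genes lie below it on array 1 and above it on array 2.

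In the PD-0325901, combination and rapamycin groups, most members differed in the same direction between the arrays of the group. All 10 were higher on PD-0325901 array 1 than on array 2, by a median of 0.40, and 8 of 10 were higher on combination array 1, by a median of 0.16. In the rapamycin group 2 of 10 were higher on array 1, and in vehicle tumours 6 of 10. The shares over all genes were not counted, so these counts cannot be called particular to the members. The correlation of 2 members over the 8 arrays had a median Pearson r of 0.585 over 45 pairs, of which 43 were positive. Junb and Egr3 were closest (r = 0.969), followed by Egr2 and Myc (0.937). Fosb was closest to Nr4a1 (0.855) and Fos to Fosb (0.778), while Ier3 had an r of 0.298 with the mean of the other 9 members. These values describe 8 arrays that share groups, tumours and any tissue admixture. Outside the members, the genes most like their mean centred level over the 8 arrays were Taf12, a subunit of general transcription factor TFIID (r = 0.978), Osgin2 (0.968), the predicted gene Gm5897 (0.964), Tex11, a meiosis gene (0.962), and Larp4, an RNA-binding protein (0.961). They were the top 5 of all other genes, and Tex11 ranged between 5.28 and 5.44 only.

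Other genes of the pathway were taken from lists written from textbook knowledge. Of 38 further immediate early genes, 25 had lower and 13 higher means in the PD-0325901 main effect (all 19938 genes: 10769 and 9169), with a median of -0.09. In these, 6 were lower and 3 higher at an unadjusted p under 0.05 (all genes 4.14% and 5.47%), and 0 passed the adjusted threshold of limma. Plk3, a stress kinase, had 8.05 and 8.48 in the combination, 9.08 and 8.71 with PD-0325901, 9.44 and 8.78 with rapamycin, and 9.73 and 9.60 in vehicle tumours, a main effect of -0.81 (SE 0.19, adjusted p = 0.2831). Maff, a small bZIP protein, had -0.39 (SE 0.11), Gadd45b, a stress sensor, -0.40 (SE 0.13), and Cebpb, a bZIP factor of inflammation and differentiation, -0.25 (SE 0.08). For these 3 and for Klf10, described in the last section, the arrays with and without PD-0325901 did not overlap. That makes 4 of 38 lower without overlap (2.39% of all genes) and 0 higher (3.34%).

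A further list held targets that ERK induces with delay and feedback inhibitors of the pathway. Of 18 measured, 17 had lower means in the PD-0325901 main effect (10769 of all 19938 genes), with a median of -0.42. At an unadjusted p under 0.05, 8 were lower (4.14% of all genes), and the arrays of 7 did not overlap (2.39% of all genes). Hbegf, a ligand of the EGF receptor, had 9.32 and 9.005 in the combination, 9.69 and 9.09 with PD-0325901, 10.38 and 10.72 with rapamycin, and 10.87 and 10.23 in vehicle tumours. Its arrays with PD-0325901 all lay below the others, with a main effect of -1.27 (SE 0.21, adjusted p = 0.1653). Spred1, an inhibitor of RAF activation, had -0.54 (SE 0.07), Ets2, an ETS transcription factor, -0.72 (SE 0.11), and Spred2, a relative of Spred1, -0.36 (SE 0.08).

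The kinases and factors upstream of the immediate early genes were taken next. The 6 measured RAF, MEK, ERK and RSK genes had a median of -0.10, from -0.28 to -0.03, with Map2k1, which encodes the drug target MEK1, at -0.28 (SE 0.15), Rps6ka3, an RSK kinase, at -0.22 (SE 0.15), Map2k2, which encodes MEK2, at -0.13 (SE 0.10) and Araf, a RAF kinase, at -0.07 (SE 0.09). The 12 SRF, ternary complex, MRTF and CREB genes had a median of -0.11. Elk1, an ERK substrate that binds beside SRF, had -0.38 (SE 0.09, adjusted p = 0.2670), and Elk3, its relative, -0.32 (SE 0.12). Atf1, a relative of CREB, had -0.19 (SE 0.08) and Mrtfa, an SRF coactivator, -0.12 (SE 0.07). Among 5 partners of the Egr and Nr4a proteins, Nab1, an Egr corepressor, had -0.46 (SE 0.16) and its relative Nab2 -0.31 (SE 0.15), while Rxra, a heterodimer partner of Nr4a1, had 0.37 (SE 0.08, adjusted p = 0.2589). Rxra was the 1 gene of these 2 lists whose arrays with PD-0325901 all lay above the others.

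Myc partners and antagonists (11 measured) had a median of 0.06, with Mxd4, a Myc antagonist, at 0.27 (SE 0.16) and Mycl, a Myc relative, at 0.14 (SE 0.09). Mxd1 and Mxi1, also antagonists, had 0.16 (SE 0.12) and -0.18 (SE 0.13). All 15 genes of a list of Myc targets had lower means in the PD-0325901 main effect (10769 of all 19938 genes), with a median of -0.30. At an unadjusted p under 0.05, 2 of them were lower (4.14% of all genes). These were Ncl, the nucleolar protein nucleolin (-0.23, SE 0.08), and Srm, spermidine synthase (-0.34, SE 0.13). Ddx21, a nucleolar helicase, had -0.43 (SE 0.18) and Nolc1, a nucleolar phosphoprotein, -0.28 (SE 0.13). In the rapamycin main effect the same list had a median of -0.55, and 10 of 15 were lower at an unadjusted p under 0.05 (2.4% of all genes). Arrays did not overlap for 3 of the 15, all lower (1.94% of all genes). The rapamycin arrays differed: the list's mean centred level was -0.47 on array 1 and 0.23 on array 2. It was 0.47 and 0.39 in vehicle tumours, 0.20 and -0.10 with PD-0325901, and -0.26 and -0.47 in the combination. Myc itself had -0.27 (SE 0.19) in the rapamycin main effect, with a 95% interval of -0.74 to 0.20. No gene of these lists passed the adjusted threshold.

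**Figure D4:**
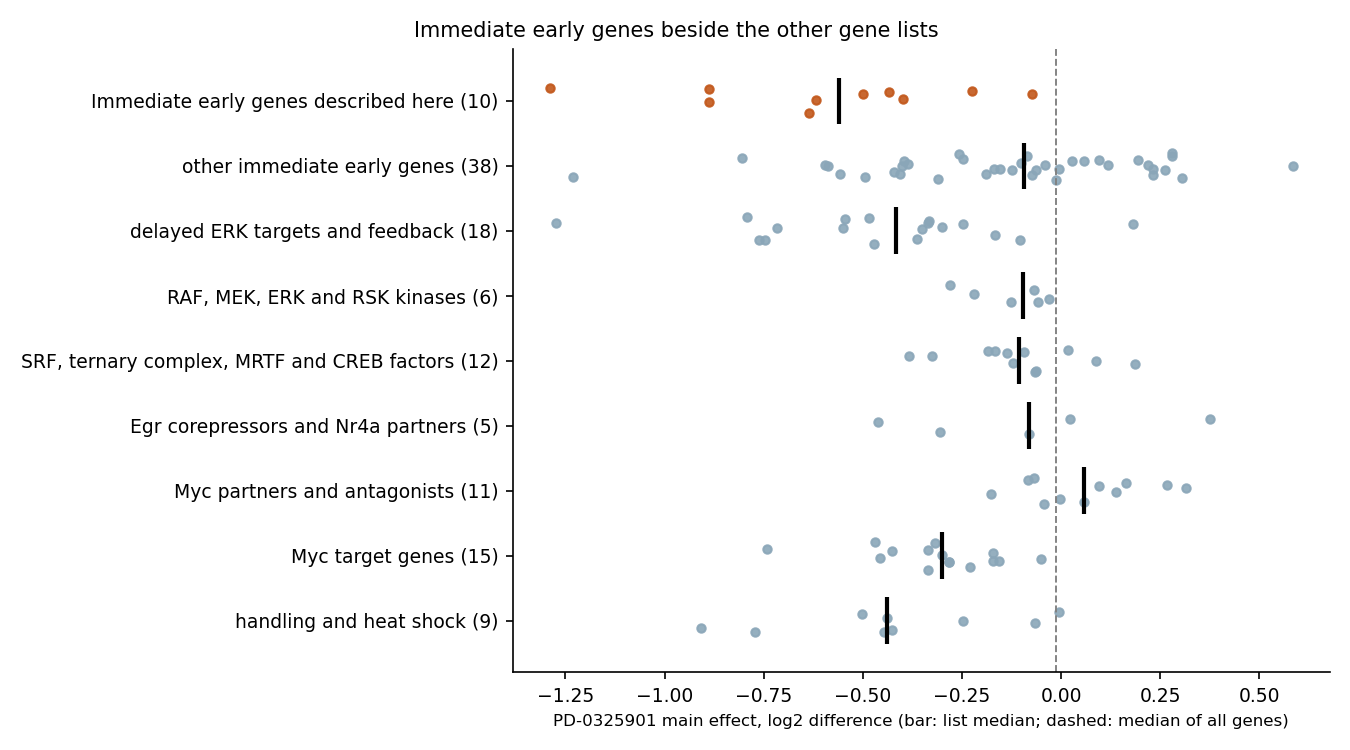
PD-0325901 main effect (horizontal axis, log2 difference) of every measured gene of the members' list and the 8 other gene lists, with the list median as a bar and the median of all genes as a dashed line. The members have a median of -0.56, delayed ERK targets -0.42 and the other immediate early genes -0.09.

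Heat shock genes and cell type markers were set beside the members, and none of their genes passed the adjusted threshold of limma. Immediate early and heat shock genes also respond to tissue handling. In the PD-0325901 main effect, 10769 of all 19938 genes had lower and 9169 higher means. All 9 measured heat shock genes had lower means, with a median of -0.44. Their mean centred level was -0.33 to -0.09 on arrays with PD-0325901 and -0.05 to 0.59 on those without. Hspe1, a mitochondrial chaperonin, had -0.43 (SE 0.07), Bag3, a co-chaperone, -0.44 (SE 0.09), Hspd1, the partner of Hspe1, -0.50 (SE 0.11) and Hsph1, a cytosolic chaperone, -0.91 (SE 0.24). All 10 macrophage markers had higher means, with mean centred levels of -0.10 to 0.49 with PD-0325901 and -0.39 to -0.13 without. The same held for 10 of 10 measured T and NK cell markers, at -0.07 to 1.002 with and -0.63 to 0.01 without PD-0325901. All 10 endothelial markers had lower means, at -0.39 to 0.13 with and -0.12 to 0.61 without the drug. Apart from macrophage markers and heat shock genes, these ranges overlapped. So did those of the members, at -0.47 to -0.06 with and -0.15 to 0.56 without the drug. At an unadjusted p under 0.05, 4 heat shock genes and 5 endothelial markers were lower (4.14% of all genes). In the same test 7 macrophage and 8 T and NK cell markers were higher (5.47%). Arrays did not overlap for 3 heat shock genes and 1 endothelial marker, all lower (2.39%). They were higher without overlap for 4 macrophage and 2 T and NK cell markers (3.34%). Fibroblast (median 0.07), Schwann cell (0.02), skeletal muscle (-0.01) and epidermis (-0.02) markers had medians near that of all genes. In the adipocyte list, 6 of 7 measured genes were lower, and its median (-0.54) lay close to that of the members (-0.56). All 4 measured erythroid genes were higher (median 0.29), as were 8 of 10 neutrophil genes (0.12). In the adipocyte and erythroid lists, 0 genes had an unadjusted p under 0.05. Rapamycin array 1 stood apart in the adipocyte list (2.32) and PD-0325901 array 2 in the erythroid list (1.40). The part of handling or of these cell types in the members' values was not tested.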

How the data were processed

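RNA was taken up in Trizol, cleaned on RNeasy columns, amplified with a NuGEN Applause kit and labelled with biotin, per the labels' protocols. The deposited values are log2 values, 1 per probe set and array. The base was read from the values, which run from 3.36 to 14.36, above the natural logarithm of a 16-bit scanner value (11.09). How the authors computed and normalized them is not given in the sources used here. Of 35512 probe sets, 1 is empty; 21789 are annotated to 1 gene, 1621 to several and 12101 to none. A gene was represented by its single-gene probe set with the highest mean (19938 genes), with no filter on low values.

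A model of 4 group means was fitted to all 8 arrays with lmFit and eBayes of limma 3.58.1 (two-sided, 4 residual and 1.98 prior degrees of freedom) in R 4.3.3, after tests on simulated data. P-values were adjusted by Benjamini-Hochberg over all genes, with a threshold of 0.05. Precision is limited by the number of arrays, and an exact permutation test of 2 against 2 could at best give 0.333.

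Groups came from the titles. The members and lists were chosen with earlier results of these data known. All members are named; in comparisons other than the PD-0325901 main effect, differences are given for the 4 members with the smallest p and, by count or range, the rest. From each other list the 4 genes with the smallest p for that main effect are named, and the 5 genes most like the members' mean. Other named values were chosen after they were seen. Alternatives were quantile normalization, median centring, a filter on level, a variance trend with a robust prior, averaged probe sets, array number as a block, a threshold of 0.1, fewer groups, and leaving out each array.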

Additional observations from a re-analysis of the deposited data

How the results depend on the processing

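No member passed the threshold in any comparison under any alternative run. For the PD-0325901 main effect, adjusted p-values over all alternatives ran from 0.1006 to 0.5198 for Fosb and from 0.1847 to 0.7071 for Nr4a1, both highest without PD-0325901 array 2. Of the members' main effects only Ier3 changed sign, with -0.29 to 0.14 when arrays were left out (0.14 when vehicle array 1 was left out, 0.03 for rapamycin array 2 and 0.02 for PD-0325901 array 2). Leaving out arrays moved the members' median to between -0.66 and -0.28 (PD-0325901 main effect), -0.66 and -0.14 (combination against rapamycin), -0.59 and 0.13 (rapamycin against vehicle) and -0.10 and 0.45 (interaction), the extremes coming from the rapamycin arrays. The filter on level, which leaves out Fos, Fosb and Ier2, moved the last of these medians, 0.13, to 0.05 and that of rapamycin against vehicle to -0.06. The count of all genes past the threshold, 0 in each comparison, was 22 for the PD-0325901 main effect in a fit of 2 groups. When arrays were left out it ran from 0 to 8 for that main effect, 0 to 9 for PD-0325901 and for the combination against vehicle, 0 to 15 for rapamycin against vehicle, and 0 to 2 for the rapamycin main effect and the interaction. The nonzero counts arose without vehicle array 2, except for rapamycin against vehicle (6 for vehicle array 2 left out, 4 for rapamycin array 1 and 15 for rapamycin array 2). The cause was not tested. With array number as a replicate block the counts stayed at 0, and Fosb had -0.63 (adjusted p = 0.2862). Same-numbered arrays of 2 groups deviated together with correlations of -0.278 to 0.183. Each correlation rests on 1 difference between the 2 arrays of each group, so it cannot settle whether the numbers pair the arrays. The signal over background behind each value is unknown, since the table gives none.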

Other observations

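Further immediate early genes outside the 10 members are named here after their values were seen. Atf3, Jund and Jun had higher means with PD-0325901, and Klf10 a lower mean. Atf3, a stress-induced bZIP factor, had 8.89 and 9.28 in the combination, 9.05 and 9.52 with PD-0325901, 8.75 and 8.52 with rapamycin, and 8.90 and 8.23 in vehicle tumours. Its PD-0325901 main effect was 0.58 (SE 0.20, limma adjusted p = 0.4431), and combination array 1 overlapped vehicle array 1. Jund, a Jun family member that is less inducible than Junb, had 10.33 and 10.26 in the combination, 10.31 and 10.005 with PD-0325901, 9.93 and 10.08 with rapamycin, and 9.98 and 9.99 in vehicle tumours, a main effect of 0.23 (SE 0.09, adjusted p = 0.5121). Jun had 0.31 (SE 0.27, 95% interval -0.36 to 0.97). Klf10, a zinc finger factor of TGF-beta signalling, lay at 10.06 to 10.14 on the 4 arrays with PD-0325901 and at 10.34 to 11.25 on the other 4, with a main effect of -0.56 (SE 0.21, adjusted p = 0.4774).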
